A study of Mus musculus with 28 samples.

Results

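Mouse embryonic fibroblasts (MEFs) that had received the combination DMT were compared with MEFs that had received HGMT, 6 of the 28 expression arrays of the study. Members were taken by sample title, DMT biological replicates 1 to 3 against HGMT biological replicates 1 to 3. DMT consisted of MYOCD, MEF2C and TBX5, and HGMT of Hand2, GATA4, MEF2C and TBX5. The series asked how added transcription factors change the conversion of fibroblasts towards cardiomyocyte-like cells. Its other arrays came from MEFs without factors (0F, 3 arrays) and from the combinations GMT (5 arrays), NGMT (6), HNGMT (3) and DMNT (4), where G, N and H stand for GATA4, NKX2.5 and Hand2. DMT replicate 4 was scaled with another set of arrays and did not enter the difference. Cells of both groups also carried an rtTA lentivirus, needed for doxycycline-driven expression of the factors, and a reporter lentivirus in which a troponin T promoter drives a calcium indicator and zeocin resistance. Doxycycline was given at 2 μg/mL. Selection in zeocin at 300 μg/mL lasted 7 days, and RNA was taken at day 21. What was measured is therefore the surviving population, chosen through a troponin T promoter in each group. DMT has MYOCD and lacks both Hand2 and GATA4, so the parts of these 3 factors in a difference cannot be told apart. In RNA from whole cultures, fewer cells of a type and less RNA per cell cannot be told apart either.

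Myocardin, the product of Myocd, is a coactivator that binds serum response factor (SRF) at CArG boxes and switches on genes of the contractile apparatus. It is best known for smooth muscle and is also made in the heart. Hand2 is a basic helix-loop-helix factor of the developing right ventricle, limb and sympathetic neurons, and GATA4 is a zinc-finger factor of heart muscle and of the epicardium. MEF2C and TBX5, given to both groups, are factors of muscle and of the atria and conduction system.

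Values are log2 signal, and differences are DMT minus HGMT on that scale, with a standard error (SE) from a limma fit over all arrays. A gene was called at an adjusted p under 0.05. The files hold no detection call. A gene below the median of all probe sets of an array may carry background only, which leaves the size of its difference inexact. The 6 arrays had medians of 6.86 to 6.95, and all of them belonged to a set of 15 arrays with nearly equal distributions of values. Over all genes tested the correlation of arrays was 0.996 to 0.997 within DMT, 0.996 to 0.998 within HGMT and 0.953 to 0.963 between the groups.

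Markers were read against the array median. All 8 fibroblast markers lay above it on every array of both groups. Of 10 cardiomyocyte markers, 8 lay above it on all DMT arrays (not Ryr2 and Mybpc3) and 7 on all HGMT arrays (not Nppa, Ttn and Mybpc3). Of 6 smooth muscle markers, all 6 did so in DMT and 3 in HGMT, where Myh11, Cnn1 and Lmod1 lay below it. The skeletal muscle regulators Myod1 and Myog and the embryonic myosin gene Myh3 lay below it in both groups, as did all 6 macrophage markers. Both groups thus gave signal for most cardiomyocyte markers and for all fibroblast markers.

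In the comparison, 2542 of 12211 genes were higher in DMT (20.8%) and 1960 were lower (16.1%). With each array centred on its median the split was 2253 higher and 2275 lower, so the excess of higher genes turned with the scaling. Changes of 2-fold or more were seen for 202 of the higher genes and 222 of the lower ones, and changes of 4-fold or more for 39 and 60. The median over all genes was 0.01. The 3 DMT and 3 HGMT values did not overlap for 6527 genes (53.5%), more than were called. DMT had higher signal for smooth muscle contractile genes, for the natriuretic peptide gene Nppa and for part of the sarcomere and skeletal muscle genes. HGMT had higher signal for 16 of 17 adipocyte genes, for part of the epicardial, mesothelial and matrix genes and for the cardiac regulators Tbx20 and Gata6.

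**Figure D1:**
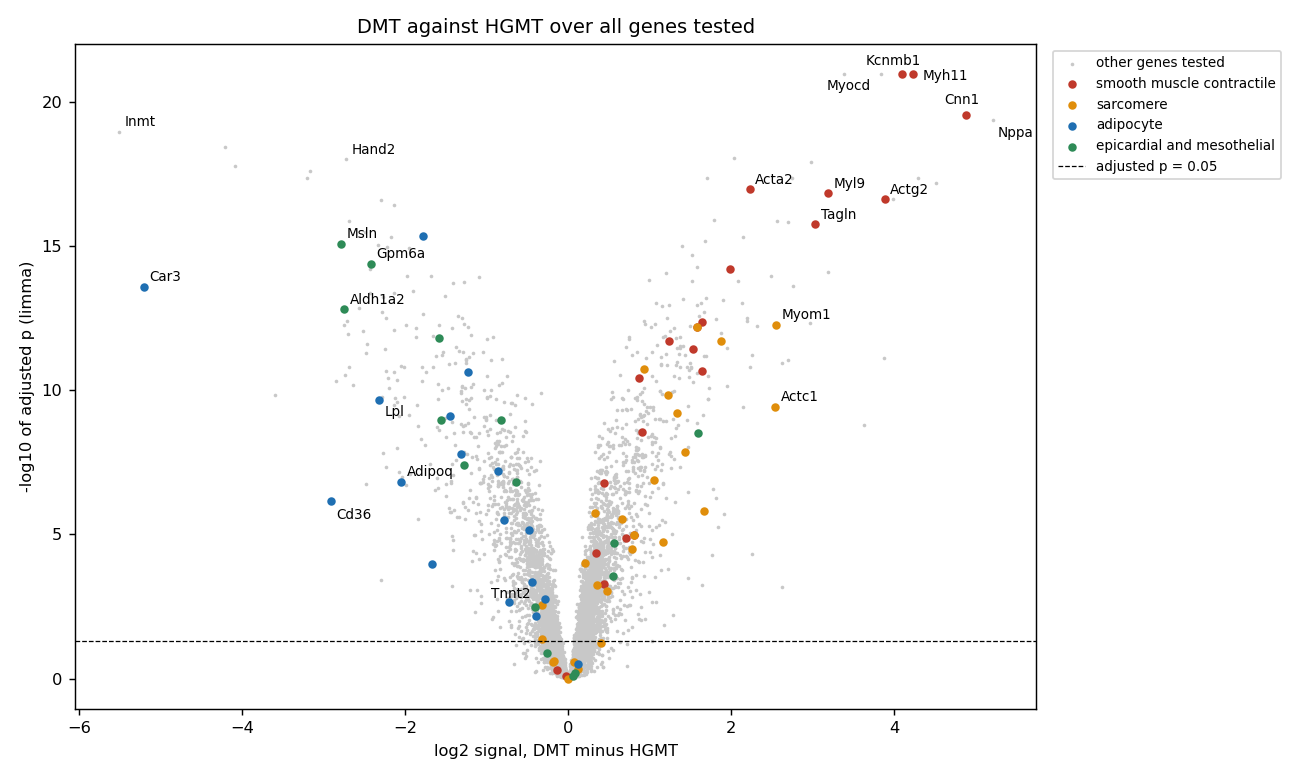
Each point is 1 of the 12211 genes tested, with DMT minus HGMT in log2 signal on the x axis and -log10 of the limma adjusted p on the y axis; coloured points are members of 4 gene lists and the dashed line is an adjusted p of 0.05. Of the 22 smooth muscle genes 13 lie at 1 or more to the right, up to Cnn1 at 4.88, while Mylk (-0.13) and Itga8 (-0.03) lie near 0; 16 of 17 adipocyte genes lie to the left, down to Car3 at -5.20.

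The genes of the factors that differ between the combinations were read first. Myocd signal was 9.57, 9.58 and 9.80 in DMT and 5.96, 5.67 and 5.81 in HGMT, below the array median there, a difference of 3.84 ± 0.08 (adjusted p = 1.08e-21). Hand2 signal was 7.40, 7.38 and 7.25 in DMT and 9.97, 10.15 and 10.09 in HGMT, a difference of -2.73 ± 0.08 (adjusted p = 9.50e-19). Neither gene's groups overlapped, and each was high where its factor had been added. Gata4 was 6.79, 6.72 and 6.98 in DMT and 7.03, 7.34 and 7.28 in HGMT (-0.38 ± 0.08, adjusted p = 5.51e-04); the groups did not overlap, but the gap was small. Mef2c (-0.04 ± 0.08), Tbx5 (0.02 ± 0.10) and Nkx2-5 (-0.01 ± 0.06), which the groups share or both lack, did not pass the test. These probe sets may or may not read the lentiviral transcripts, and their signal was not used to check delivery.

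Because SRF acts through CArG boxes, promoters of the genes were searched for this 10-base element, which opens with CC, closes with GG and has only A and T between. It is its own reverse complement in form, so both strands were covered by each match, and no other motif was searched. Promoter windows of RefSeq (GRCm38.p6), 300 bases from 250 before the start to 50 after it, were found for 153 of the 202 genes higher in DMT by 2-fold, and 13 of these (8.5%) held a box. Of the 222 genes lower by 2-fold, 153 had a window and 2 of them (1.3%) held a box. Without the 2-fold limit the shares were closer, 2.7% of genes called higher (55 of 2039 with a window) and 1.6% of genes called lower (24 of 1502). The share was 1.6% among all genes tested with a window (160 of 9739) and 1.8% among all genes of the table (488 of 27025). A match is a description of the letters and does not show binding. Most smooth muscle genes had no box in this short window: 1 of 17 list members with a window did, Myl9. Boxes were also found for Fhl1 and Myh4, higher in DMT, and for Tyms and another start of Fhl2, lower in DMT, and are not shown. The stretches around the box, capitalised, are shown for 4 muscle genes that were higher in DMT, for the atrial light chain gene Myl7, and for a start of Fhl2, which was lower in DMT although it also has a box there.
Myl9, chr2:156775273-156775342, plus strand: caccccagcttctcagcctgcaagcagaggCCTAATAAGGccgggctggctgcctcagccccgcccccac
Acta1, chr8:123894809-123894878, minus strand: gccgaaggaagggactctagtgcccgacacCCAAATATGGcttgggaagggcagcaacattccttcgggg
Actc1, chr2:114052883-114052952, minus strand: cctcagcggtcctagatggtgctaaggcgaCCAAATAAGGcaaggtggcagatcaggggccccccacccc
Myom1, chr17:71019428-71019497, plus strand: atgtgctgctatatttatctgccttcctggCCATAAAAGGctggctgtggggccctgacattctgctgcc
Myl7, chr11:5898804-5898873, minus strand: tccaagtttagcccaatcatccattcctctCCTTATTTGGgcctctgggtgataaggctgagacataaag
Fhl2, chr1:43163962-43164022, minus strand: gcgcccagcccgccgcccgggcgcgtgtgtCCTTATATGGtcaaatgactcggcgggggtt
The last base of the box lay 152 bases before the start in Myl9, 64 in Acta1, 38 in Actc1, 90 in Myom1, 52 in Myl7 and 22 in Fhl2.

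Smooth muscle contractile genes were higher in DMT: of 22 members tested, 20 were higher, 13 of them by 2-fold or more, and 0 were lower. The median difference was 1.56 against 0.01 over all genes, of which 20.8% were higher and 16.1% lower. Cnn1, calponin, an actin-binding regulator of smooth muscle contraction, read 11.34, 11.37 and 11.49 in DMT and 6.70, 6.43 and 6.43 in HGMT. All 3 HGMT values lay below the array median, the groups did not overlap, and the difference was 4.88 ± 0.11, or 29.4-fold (adjusted p = 2.82e-20). Myh11, the smooth muscle myosin heavy chain, read 10.73, 10.85 and 11.07 in DMT against 6.71, 6.58 and 6.66 in HGMT (4.24 ± 0.08, adjusted p = 1.08e-21). Kcnmb1, the regulatory subunit of the smooth muscle calcium-activated potassium channel, read 8.89, 8.89 and 9.37 against 4.92, 5.01 and 4.93 (4.10 ± 0.08, adjusted p = 1.08e-21). As for Cnn1, the low values of both genes lay below the array median and far from the DMT values.

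Genes with clear signal in both groups differed too. Myl9, a regulatory myosin light chain of smooth muscle, read 11.97, 11.96 and 12.20 in DMT and 8.74, 8.74 and 9.10 in HGMT (3.19 ± 0.10). Tagln, transgelin or SM22, read 11.08, 11.15 and 11.41 in DMT and 8.10, 7.94 and 8.50 in HGMT (3.03 ± 0.11). Acta2, smooth muscle alpha-actin, read 13.01, 12.96 and 13.14 in DMT and 10.69, 10.75 and 10.99 in HGMT (2.23 ± 0.07). The groups overlapped in none of these 3 genes, and the HGMT values lay above the array median on every array. Actg2, the enteric gamma-actin, read 9.66, 9.71 and 10.03 against 5.84, 5.77 and 6.13 (3.89 ± 0.13). Actin genes are close paralogs, and probe sets may share signal among Acta1, Acta2, Actc1 and Actg2.

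The list did not move as a whole. Mylk, the myosin light chain kinase that starts smooth muscle contraction, read 9.63, 9.77 and 9.97 in DMT and 9.85, 9.97 and 9.95 in HGMT, overlapping, with a difference of -0.13 ± 0.13 that did not pass the test (adjusted p = 0.490). Itga8, integrin alpha 8, read 9.45, 9.56 and 9.76 against 9.50, 9.71 and 9.64 (-0.03 ± 0.10, adjusted p = 0.846). Set against GMT, the combination that both share in part, Mylk was higher in DMT (1.29 ± 0.13) and in HGMT (1.42 ± 0.13), and Itga8 was higher in DMT (1.89 ± 0.09) and in HGMT (1.92 ± 0.09). The summed log2 signal of the 6 smooth muscle markers was 63.5 to 64.7 on the DMT arrays and 47.5 to 48.4 on the HGMT arrays.

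Comparisons with GMT place each group beside cells with neither MYOCD nor Hand2. DMT against GMT exchanges GATA4 for MYOCD and HGMT against GMT adds Hand2. They share the GMT arrays, so their values are set side by side and not tested against each other. The fitted levels of GMT and NGMT also draw on arrays of another set, through the term for array set. Differences from GMT or NGMT are therefore not exactly those from the arrays of the second set alone. In DMT against GMT 9.84% of all genes were higher and 8.75% lower, and in HGMT against GMT 12.2% were higher and 14.5% lower. With only the second array set fitted, HGMT against GMT gave 2080 calls in place of 3258 and DMT against GMT 1575 in place of 2270; the counts of list members against GMT are from the fit of all arrays. Of the 22 smooth muscle members, 21 were higher in DMT than in GMT and 0 lower, while 6 were higher and 5 lower in HGMT. For Cnn1, DMT minus GMT was 4.78 ± 0.11 and HGMT minus GMT was -0.10 ± 0.11, which did not pass the test. Tagln was higher in DMT (2.56 ± 0.11) and lower in HGMT (-0.47 ± 0.11). Des, desmin, the intermediate filament of all muscle, was placed the other way: at 11.35, 11.37 and 11.46 in DMT and 9.80, 9.85 and 9.78 in HGMT, it was 1.59 ± 0.09 higher in DMT. Against GMT, Des was -0.06 ± 0.08 in DMT, which did not pass the test, and -1.65 ± 0.08 in HGMT.

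**Figure D2:**
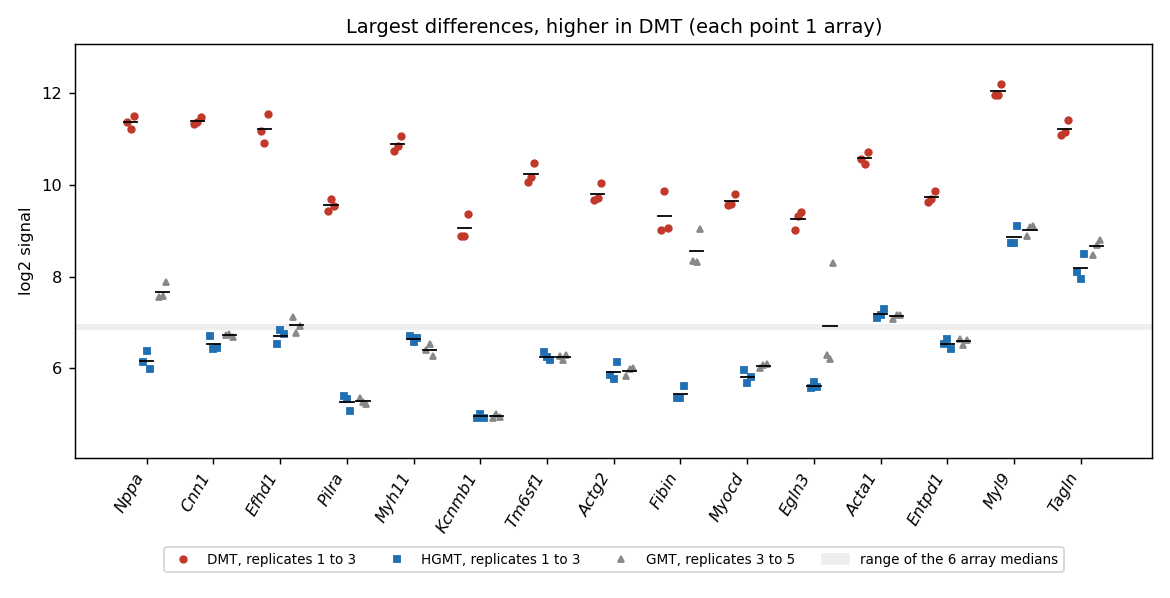
Log2 signal on each array (y axis) of the 15 genes with the largest differences in favour of DMT (x axis), for DMT (circles), HGMT (squares) and GMT replicates 3 to 5 (triangles), with a short line at each mean and a grey band at the range of the 6 array medians. DMT lies above HGMT for each gene, and GMT lies near HGMT for most of them but near DMT for Fibin, at 8.33, 8.32 and 9.05.

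Other SRF and actin-cytoskeleton genes differed less. Of 25 tested, 15 were higher in DMT and 4 lower (20.8% and 16.1% over all genes), with a median of 0.23. The 4 lower calls fell to 1 or 2 when DMT replicate 1 or 2 or HGMT replicate 2 or 3 was left out. Acta1, skeletal alpha-actin, read 10.56, 10.46 and 10.72 in DMT and 7.10, 7.17 and 7.30 in HGMT (3.39 ± 0.07, adjusted p = 1.08e-21). Fhl1, a LIM-domain protein of muscle, read 12.18, 12.15 and 12.42 against 10.43, 10.47 and 10.48 (1.79 ± 0.07). Both were far apart between the groups, and tropomyosin Tpm1 (0.93 ± 0.06) and the LIM protein gene Csrp1 (0.93 ± 0.05) were higher by less than 2-fold. Fhl2, a LIM-domain cofactor of SRF, went the other way, at 9.79, 9.71 and 9.88 in DMT and 11.02, 11.06 and 11.12 in HGMT (-1.27 ± 0.06, adjusted p = 1.74e-14). Against GMT, Fhl2 was 0.27 ± 0.06 in DMT and 1.54 ± 0.06 in HGMT, and it was 1.34 ± 0.06 higher in HNGMT than in NGMT. Srf itself was 0.18 ± 0.07 higher in DMT (adjusted p = 0.0466), and of its other coactivators Mrtfb was lower (-0.22 ± 0.08, adjusted p = 0.0349) and Mrtfa did not pass the test (0.06 ± 0.08, adjusted p = 0.612).

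Sarcomere genes were higher in DMT in number, but the list was divided. Of 26 tested, 18 were higher, 10 of them by 2-fold or more, and 2 were lower, Tnnt2 and Mybpc3. The median was 0.73, and over all genes 20.8% were higher and 16.1% lower. The lower calls fell to 1 when any of 5 replicates was left out (all but DMT replicate 3). Actc1, cardiac alpha-actin, read 12.63, 12.50 and 12.71 in DMT and 10.06, 9.94 and 10.21 in HGMT (2.54 ± 0.20). Myom1, myomesin, which cross-links thick filaments, read 9.42, 9.72 and 10.00 against 7.24, 7.04 and 7.18 (2.56 ± 0.14). Myh6, the alpha-myosin heavy chain of the adult mouse heart, read 8.91, 9.30 and 9.37 against 7.43, 7.12 and 7.39 (1.88 ± 0.11). None of the 3 genes overlapped, and in all 3 the DMT signal also lay above GMT: by 2.21 ± 0.19 for Actc1, 3.01 ± 0.13 for Myom1 and 2.47 ± 0.11 for Myh6.

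For the atrial light chains the difference had another base. Myl7, the atrial regulatory light chain, read 10.67, 10.45 and 10.96 in DMT and 8.87, 8.92 and 9.29 in HGMT (1.67 ± 0.22, adjusted p = 1.59e-06). Myl4, the atrial essential light chain, read 11.58, 11.51 and 11.68 against 10.54, 10.10 and 10.46 (1.23 ± 0.09, adjusted p = 1.50e-10). The groups did not overlap, yet both lay under GMT. Myl7 was -0.61 ± 0.21 in DMT against GMT and -2.28 ± 0.21 in HGMT, and Myl4 was -0.66 ± 0.09 and -1.88 ± 0.09. In HNGMT against NGMT, arrays that the main comparison does not use, Myl7 was -2.16 ± 0.21 and Myl4 was -1.88 ± 0.09. Over the sarcomere list 12 members were higher and 9 lower in DMT against GMT, and 3 were higher and 8 lower in HGMT against GMT.

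The 3 troponin genes described here gave 3 different results. Tnnt2, which encodes cardiac troponin T of the thin filament, read 12.17, 12.29 and 12.54 in DMT and 12.67, 12.68 and 12.62 in HGMT (-0.33 ± 0.08, adjusted p = 0.00282). Tnni3, cardiac troponin I, read 8.60, 8.26 and 8.24 in DMT and 8.66, 8.41 and 8.59 in HGMT, overlapping (-0.19 ± 0.13, adjusted p = 0.269), and in both it lay below GMT, by -2.26 ± 0.12 in DMT and -2.07 ± 0.12 in HGMT. Tnnc1, the troponin C of heart and slow muscle, read 9.99, 10.23 and 10.57 in DMT and 8.96, 8.77 and 8.77 in HGMT (1.43 ± 0.14). Tnnt2 was thus slightly lower in DMT while 18 of 26 sarcomere genes were higher; selection had run through a troponin T promoter in both groups.

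**Figure D3:**
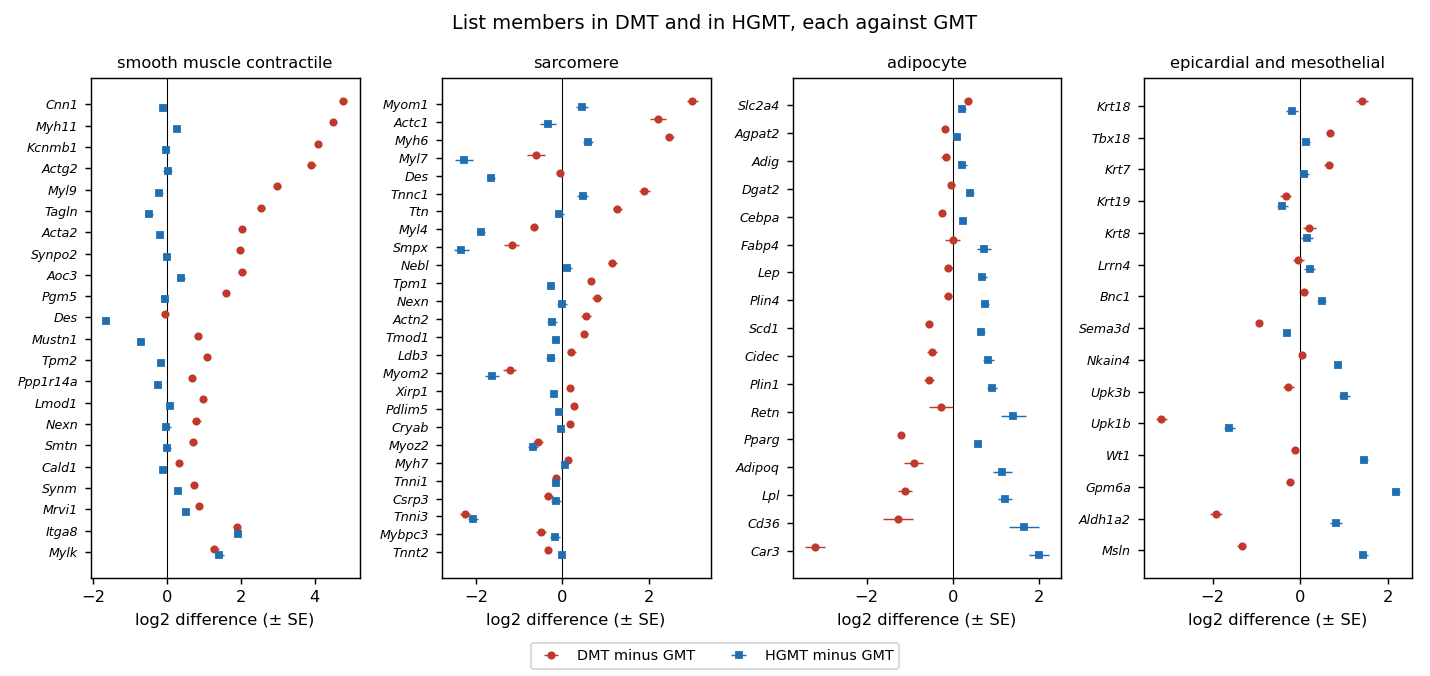
Difference from GMT in log2 signal ± SE (x axis) for the tested members of 4 gene lists (rows), in DMT (circles) and in HGMT (squares). Of the 22 smooth muscle genes, 21 were called to the right of 0 in DMT and 6 in HGMT, with Itga8 at 1.89 and 1.92; adipocyte genes lie to the right in HGMT, with Car3 at 2.00.

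The largest rise was that of Nppa, which encodes atrial natriuretic peptide, a hormone of atrial and stressed ventricular muscle. It read 11.38, 11.22 and 11.51 in DMT and 6.13, 6.38 and 5.98 in HGMT, 37.0-fold apart on these arrays (5.21 ± 0.13, adjusted p = 4.33e-20). All HGMT values lay below the array median, and GMT lay between the groups at 7.56, 7.58 and 7.87. Nppa was 3.76 ± 0.12 in DMT against GMT, -1.45 ± 0.12 in HGMT against GMT and -2.23 ± 0.12 in HNGMT against NGMT. Its neighbour Nppb, B-type natriuretic peptide, read 7.46, 7.21 and 7.38 against 6.77, 6.63 and 6.76 (0.63 ± 0.15), a much smaller gap without overlap. Of 12 atrial and natriuretic genes tested, 5 were higher and 2 lower (20.8% and 16.1% over all genes). The lower ones were Pam (-0.53) and Corin (-0.24). The lower calls fell to 1 when DMT replicate 2 was left out. Connexin 40, Gja5, did not pass the test (0.06 ± 0.15, adjusted p = 0.803) and lay below the array median in both groups. Of 4 ventricular genes tested, Hey2 was lower (-0.31 ± 0.10), a call that was lost when DMT replicate 2 or HGMT replicate 1 or 3 was left out, and Myh7 (0.08), Hand1 (0.13) and Lbh (-0.04) did not pass the test. Without HGMT replicate 2, Hand1 was called higher.

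Genes of the conduction system and of ion channels rose in part. Of 14 conduction and pacemaker genes tested, 7 were higher and 2 lower (1 when any replicate but HGMT replicate 1 was left out), and of 9 ion channel and gap junction genes, 4 were higher and 1 lower. Beside these counts, 20.8% of all genes were higher and 16.1% lower. Popdc2, a cyclic AMP-binding membrane protein of muscle and the conduction system, read 8.96, 8.82 and 9.48 in DMT and 7.79, 7.78 and 7.73 in HGMT (1.32 ± 0.12). Hcn4, the main pacemaker channel of the sinus node, read 8.34, 8.25 and 8.45 against 7.81, 7.82 and 7.73 (0.56 ± 0.11), and both groups lay above GMT, by 1.42 ± 0.10 in DMT and 0.85 ± 0.10 in HGMT. The repolarizing potassium channel gene Kcnh2 read 8.21, 8.12 and 8.41 against 7.17, 7.16 and 7.30 (1.04 ± 0.09). No overlap was seen in these 3 genes. The main ventricular connexin gene Gja1 was higher (0.47 ± 0.05) and the nodal connexin gene Gjc1 lower (-0.31 ± 0.06).

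Calcium-handling genes split: of 20 tested, 9 were higher and 7 lower (20.8% and 16.1% over all genes), with a median of 0.17. Among the 9 higher members were Srl, Jph2 and Trdn. Srl, sarcalumenin, a calcium-binding protein of the reticulum lumen, read 10.68, 10.84 and 11.12 in DMT and 7.93, 7.86 and 7.91 in HGMT (2.98 ± 0.09, adjusted p = 1.17e-18). Jph2, junctophilin, which holds the reticulum near the cell membrane, read 8.97, 8.88 and 9.07 against 8.17, 8.23 and 8.05 (0.82 ± 0.07). Triadin, Trdn, was 0.83 ± 0.16 higher, with a DMT value (0.12 ± 0.15) that did not differ from GMT at the threshold and an HGMT value below it (-0.71 ± 0.15).

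Among the 7 lower members were Cacna1c, Ryr2, Stim1 and Casq2. Cacna1c, the L-type calcium channel, read 8.47, 8.47 and 8.43 in DMT and 9.54, 9.35 and 9.40 in HGMT (-0.97 ± 0.12, adjusted p = 3.01e-07). Ryr2, the release channel of the reticulum, read 6.54, 6.48 and 6.59 in DMT, below the array median, and 7.24, 7.19 and 7.17 in HGMT (-0.66 ± 0.16). The store sensor gene Stim1 was lower as well (-0.57 ± 0.09). Casq2, cardiac calsequestrin, read 8.44, 8.62 and 8.72 against 8.96, 9.15 and 8.88 (-0.40 ± 0.08); compared with GMT, where it lay below the array median, it was 2.33 ± 0.08 higher in DMT and 2.74 ± 0.08 in HGMT. The pump gene Atp2a2 was among the 9 higher members, by a small amount (0.22 ± 0.08, adjusted p = 0.0372).

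Among 29 other cardiac transcription regulators, 5 were higher in DMT and 9 lower, with a median of -0.01. The shares over all genes were 20.8% higher and 16.1% lower. Tbx20, a T-box factor of the heart wall and valves, read 5.22, 5.14 and 5.27 in DMT and 7.57, 7.45 and 7.33 in HGMT (-2.24 ± 0.14, adjusted p = 3.67e-12). The DMT values lay far below the array median and the groups did not overlap. Against GMT, Tbx20 was -0.19 ± 0.13 in DMT, which did not pass the test, and 2.05 ± 0.13 in HGMT, and it was 1.96 ± 0.13 in HNGMT against NGMT. Gata6, a relative of GATA4, read 7.98, 7.89 and 7.81 against 8.62, 8.88 and 8.77 (-0.86 ± 0.10). The muscle ankyrin repeat gene Ankrd1 was also lower (-0.57 ± 0.13). Hey1, a repressor of the Notch pathway, (0.57 ± 0.08) and Tbx18, a factor of the sinus horn and epicardium, (0.56 ± 0.09) were higher.

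Skeletal muscle genes were higher in DMT without their regulators. Of 16 tested, 12 were higher, 8 of them by 2-fold or more, and 0 lower, with a median of 0.86. Over all genes, 20.8% were higher and 16.1% lower. Mylpf, Myh1 and Myh4 lay above the array median on all DMT arrays and below it on all HGMT arrays. Such members could pass the filter through DMT and DMNT arrays, which made a higher call in DMT likely beforehand. The count is therefore a description only. Mylpf, the fast skeletal regulatory light chain, read 7.61, 7.51 and 7.59 in DMT and 5.42, 5.59 and 5.61 in HGMT (2.03 ± 0.06). Ckm, muscle creatine kinase, read 8.49, 8.54 and 8.35 against 7.07, 7.14 and 7.15 (1.34 ± 0.08). Both genes had closely grouped values with no overlap. Myh1 (2.63 ± 0.17), Myh2 (1.14 ± 0.22) and Myh4 (1.71 ± 0.05), fast myosin heavy chains of near-identical sequence that probe sets may not separate, were below the array median in HGMT. Myod1 and Myog lay below the array median on all 6 arrays. The summed log2 signal of the 6 skeletal muscle markers was 39.9 to 40.0 in DMT and 38.5 to 38.7 in HGMT. Of these markers only Ckm was called. Actn3 (-0.06, adjusted p = 0.461) and Tnnt3 (0.03, adjusted p = 0.730) lay above the array median on all 6 arrays and did not pass the test.

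Several of the largest rises belonged to no muscle list. Efhd1, a calcium-binding mitochondrial protein, read 11.18, 10.91 and 11.55 in DMT and 6.53, 6.83 and 6.74 in HGMT (4.52 ± 0.14, adjusted p = 6.18e-18). Pilra, an inhibitory immune receptor, read 9.43, 9.68 and 9.55 against 5.40, 5.32 and 5.06 (4.29 ± 0.13). Tm6sf1, a lysosomal membrane protein, read 10.07, 10.18 and 10.47 against 6.35, 6.24 and 6.18 (3.98 ± 0.13). For all 3, HGMT lay below the array median and close to GMT, from which it differed by -0.27 ± 0.13 for Efhd1, -0.04 ± 0.12 for Pilra and -0.01 ± 0.13 for Tm6sf1, none past the test. Entpd1, the CD39 ectonucleotidase that degrades ATP outside cells, was likewise 3.19 ± 0.14 higher in DMT than in HGMT. Nes, nestin, an intermediate filament of progenitor and developing muscle cells, read 8.67, 9.08 and 9.06 against 6.25, 6.11 and 6.17 (2.76 ± 0.13); it was 1.23 ± 0.12 in DMT against GMT and -1.53 ± 0.12 in HGMT.

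Fibin and Egln3 show 2 further forms. Fibin, a secreted protein named for limb bud initiation in fish, read 9.01, 9.88 and 9.06 in DMT and 5.35, 5.36 and 5.61 in HGMT (3.87 ± 0.25). Against GMT it was 0.89 ± 0.24 in DMT and -2.99 ± 0.24 in HGMT, both past the test. Egln3, an oxygen-dependent prolyl hydroxylase, read 9.02, 9.31 and 9.42 in DMT and 5.58, 5.70 and 5.60 in HGMT (3.63 ± 0.32), while GMT spread widely, at 6.29, 6.20 and 8.31. The high GMT value was that of replicate 5, and the SE of Egln3, from the pooled fit, carries that spread.

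The largest fall was that of Inmt, indolethylamine N-methyltransferase, which methylates tryptamine and related amines. It read 5.60, 5.44 and 5.42 in DMT, below the array median, and 10.79, 11.12 and 11.09 in HGMT (-5.51 ± 0.14, 45.6-fold, adjusted p = 1.08e-19). DMT did not differ from GMT at the threshold (-0.14 ± 0.13), while HGMT was 5.37 ± 0.13 above it, and HNGMT was 5.04 ± 0.13 above NGMT. Pcolce2, an enhancer of procollagen processing, had the same form at higher signal: it read 8.0, 8.15 and 8.26 in DMT and 11.31, 11.48 and 11.25 in HGMT (-3.21 ± 0.10), with 0.10 ± 0.09 in DMT against GMT, 3.31 ± 0.09 in HGMT against GMT and 2.96 ± 0.09 in HNGMT against NGMT. Gpc3, glypican 3, a growth-modulating cell-surface proteoglycan, read 9.18, 9.49 and 8.97 against 12.27, 12.46 and 12.40 (-3.16 ± 0.09), with 3.13 ± 0.09 in HGMT against GMT and 3.26 ± 0.09 in HNGMT against NGMT. All 3 genes were called in both comparisons that add Hand2, and DMT against GMT did not pass the test for any of them (adjusted p = 0.591 for Inmt, 0.556 for Pcolce2 and 0.879 for Gpc3).

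Other large falls had DMT below GMT and HGMT above it. Car3, carbonic anhydrase 3, abundant in fat and slow muscle, read 7.69, 6.90 and 6.67 in DMT and 12.42, 12.05 and 12.39 in HGMT (-5.20 ± 0.25), with -3.20 ± 0.23 in DMT and 2.00 ± 0.23 in HGMT against GMT. Trf, transferrin, the iron carrier of plasma, read 6.56, 6.46 and 6.49 against 10.62, 10.84 and 10.68 (-4.21 ± 0.11), with -2.05 ± 0.11 and 2.16 ± 0.11 against GMT. Groups were far apart in both genes. C4b, a complement component, read 8.57, 6.77 and 6.92 in DMT and 11.04, 10.92 and 11.06 in HGMT (-3.59 ± 0.27), and here HGMT did not differ from GMT at the threshold (0.51 ± 0.26). DMT replicate 1 was the highest of its group for Car3, C4b, Sfrp1, Cfb and Il1rn. Aldh3a1, an aldehyde dehydrogenase, was -4.09 ± 0.12, with 3.26 ± 0.11 in HGMT against GMT and 3.26 ± 0.11 in HNGMT against NGMT.

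**Figure D4:**
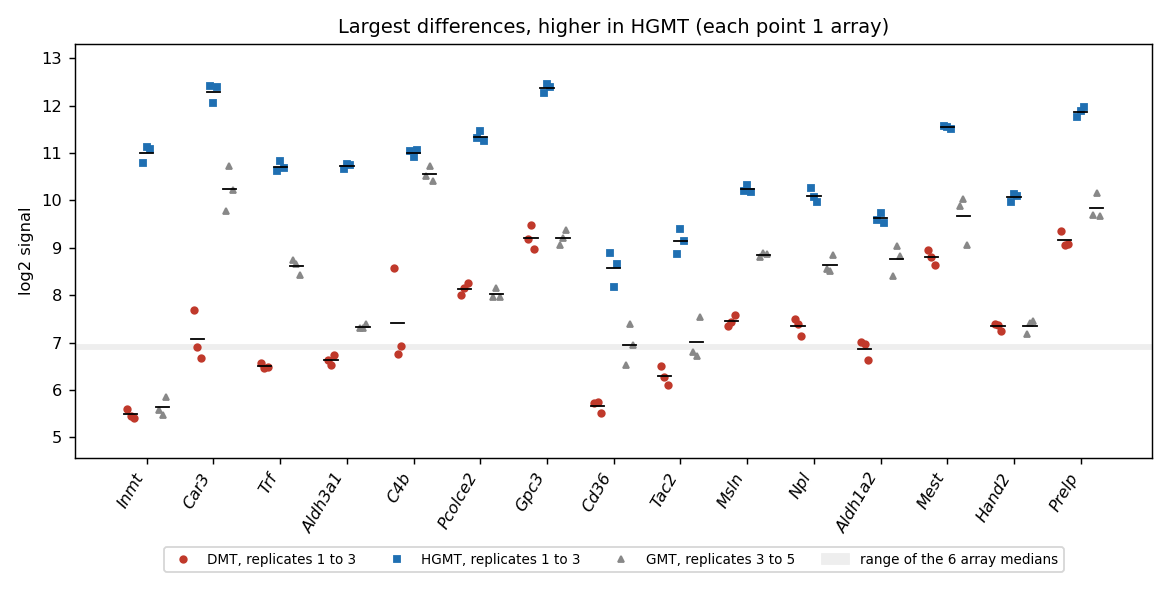
Log2 signal on each array (y axis) of the 15 genes with the largest differences in favour of HGMT (x axis), drawn as for the rises, with DMT as circles, HGMT as squares, GMT replicates 3 to 5 as triangles, means as short lines and the 6 array medians as a grey band. HGMT lies above DMT for each gene, GMT lies near DMT for Inmt (5.58, 5.47 and 5.85), and DMT replicate 1 stands at 8.57 for C4b against 6.77 and 6.92.

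Adipocyte genes were lower in DMT: of 17 tested, 16 were lower, 9 of them by 2-fold or more, and 0 higher, with a median of -1.22. Over all genes, 16.1% were lower and 20.8% higher. Adipoq, Cidec and Retn lay below the array median on all DMT arrays and above it on all HGMT arrays. Such members could pass the filter without DMT, which made a lower call in DMT likely beforehand. Lpl, lipoprotein lipase, which frees fatty acids from circulating lipid, read 8.20, 7.85 and 7.56 in DMT and 10.32, 10.01 and 10.21 in HGMT (-2.32 ± 0.18). Pparg, the nuclear receptor that drives fat cell formation, read 8.21, 7.96 and 7.96 against 9.91, 9.75 and 9.82 (-1.78 ± 0.07, adjusted p = 4.43e-16). Adipoq, the hormone adiponectin, read 6.43, 6.42 and 6.38, below the array median, against 8.60, 8.19 and 8.58 (-2.05 ± 0.23). Groups did not overlap in any of these genes, and the fatty acid transporter gene Cd36 (-2.91 ± 0.37) belonged to them as well. Against GMT, 10 of the 17 were lower and 1 higher in DMT, and 14 were higher and 0 lower in HGMT. Slc2a4, the insulin-responsive glucose transporter, was the tested member that did not pass (0.13 ± 0.09, adjusted p = 0.307). All 5 adipocyte markers lay above the array median on every HGMT array, against 1 of 5 in DMT (Fabp4). Their summed log2 signal was 35.9 to 36.3 in DMT and 42.2 to 44.1 in HGMT. Their part in the other falls was not tested.

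Epicardial and mesothelial genes gave 9 lower and 3 higher of 15 (16.1% and 20.8% over all genes), with a median of -0.64. Msln, mesothelin, a surface protein of mesothelium, read 7.34, 7.43 and 7.58 in DMT and 10.21, 10.32 and 10.17 in HGMT (-2.78 ± 0.11), with -1.34 ± 0.11 in DMT and 1.44 ± 0.11 in HGMT against GMT. Gpm6a, a membrane glycoprotein of neurons and mesothelium, read 6.35, 6.37 and 6.42 against 8.70, 9.06 and 8.65 (-2.42 ± 0.10). Wt1, the factor that marks epicardium and mesothelium, read 5.97, 5.99 and 6.05 against 7.79, 7.65 and 7.35 (-1.59 ± 0.09). DMT lay below the array median for Gpm6a and Wt1. The keratin gene Krt18 opposed them, at 9.14, 9.38 and 9.84 in DMT and 7.83, 7.85 and 7.88 in HGMT (1.60 ± 0.14), and Tbx18 and Krt7 were the other 2 higher members. Of 6 mesothelial markers, 3 lay above the median on all HGMT arrays (Msln, Upk3b and Wt1) and 2 on all DMT arrays, while Muc16 and Lrrn4 lay below it in both. Their summed log2 signal was 38.0 to 38.6 in DMT and 43.7 to 44.4 in HGMT.

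Retinoic acid is made by retinaldehyde dehydrogenases, and all 3 of their genes tested were lower in DMT. Aldh1a2, the main embryonic enzyme, read 7.01, 6.98 and 6.63 in DMT and 9.59, 9.74 and 9.53 in HGMT (-2.75 ± 0.14), with -1.92 ± 0.14 in DMT and 0.83 ± 0.14 in HGMT against GMT. Aldh1a1 read 6.88, 6.61 and 6.46 against 8.59, 8.46 and 8.48 (-1.86 ± 0.11). In the retinoid list 7 of 14 were lower and 5 higher (16.1% and 20.8% over all genes). Aldh1a3 was at -0.43. The higher ones included the binding proteins Crabp2 (0.95 ± 0.12) and Rbp4 (0.87 ± 0.25) and the retinol dehydrogenase Rdh10 (0.50).

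Fibroblast and matrix genes were lower in DMT in 17 of 43 cases and higher in 8 (16.1% and 20.8% over all genes). Their median was -0.18. The count of lower members rose to 26 when only the 6 arrays were fitted. The main fibrillar collagen gene Col1a1 read 12.21, 12.47 and 12.32 in DMT and 12.35, 12.43 and 12.44 in HGMT, overlapping (-0.07 ± 0.14, adjusted p = 0.753), and vimentin, Vim, was 0.03 ± 0.02 (adjusted p = 0.381). In 4 of the 43 the fall was 2-fold or more. Col14a1, a collagen of fibril surfaces, read 6.82, 6.77 and 6.92 in DMT and 9.30, 9.12 and 9.38 in HGMT (-2.43 ± 0.12). Fbln1, fibulin 1, read 9.87, 9.41 and 9.33 against 11.82, 11.85 and 11.77 (-2.28 ± 0.12). Prelp, a leucine-rich repeat proteoglycan of the matrix that was not on the list, read 9.35, 9.06 and 9.07 against 11.76, 11.88 and 11.97 (-2.71 ± 0.15). Thbs2 (0.71 ± 0.10), Mmp3 (0.77 ± 0.14) and Tnc (0.67 ± 0.13), a thrombospondin, a matrix protease and tenascin C, were higher. Against GMT, 6 members were higher and 7 lower in DMT, and 17 higher and 4 lower in HGMT. The 8 fibroblast markers summed to 94.6 to 96.3 in DMT and 96.6 to 96.8 in HGMT.

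Signalling genes changed by component. Of 31 TGF-beta and BMP genes tested, 7 were higher and 11 lower, with a median of -0.17. Over all genes 20.8% were higher and 16.1% lower. Grem1, gremlin, a secreted BMP antagonist, read 12.12, 12.16 and 11.98 in DMT and 10.55, 10.73 and 10.57 in HGMT (1.47 ± 0.14). Against GMT, Grem1 was 0.31 ± 0.13 in DMT (adjusted p = 0.120) and -1.16 ± 0.13 in HGMT. The ligands Tgfb3 (0.93 ± 0.07) and Inhba (0.95 ± 0.10) were higher, and the receptor Tgfbr2 (-0.62 ± 0.06) and the decoy receptor Bambi (-0.94 ± 0.06) were lower. The TGF-beta-induced matrix gene Tgfbi was lower too (-1.44 ± 0.19).

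Of 30 Wnt genes tested, 5 were higher and 13 lower (20.8% and 16.1% over all genes), with a median of -0.13. Sfrp1, which binds Wnt ligands, read 10.86, 10.08 and 9.67 in DMT and 12.23, 12.15 and 12.18 in HGMT (-1.98 ± 0.23). Wif1, another Wnt-binding inhibitor, read 6.21, 6.36 and 6.39, below the array median, against 7.76, 7.67 and 7.76 (-1.41 ± 0.07), with 1.50 ± 0.06 in HGMT against GMT and 1.55 ± 0.06 in HNGMT against NGMT. The antagonist gene Sfrp2 (-1.27 ± 0.18) and the agonist gene Rspo2 (-1.41 ± 0.24) were lower as well, and the feedback target Axin2 (-0.01) did not pass the test. Among 11 Notch genes, 1 was higher (Hey1) and 4 lower (Notch1, Jag1, Hey2 and Lfng); the 4 became 1 or 2 when any replicate but DMT replicate 3 was left out.

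Of 28 inflammatory and acute-phase genes tested, 8 were higher and 11 lower (20.8% and 16.1% over all genes). The higher calls fell to 4 or 5 when any replicate but DMT replicate 3 was left out. Cfb, complement factor B, read 7.54, 7.03 and 6.69 in DMT and 9.12, 9.22 and 9.13 in HGMT (-2.07 ± 0.17). Il6, interleukin 6, read 5.88, 5.70 and 5.50, below the array median, against 7.64, 7.55 and 7.43 (-1.84 ± 0.26). Ptgs2, inducible cyclooxygenase, went the other way, at 11.76, 11.89 and 11.95 in DMT and 10.28, 10.42 and 10.34 in HGMT (1.52 ± 0.06), as did the alarmin gene Il33, at 10.51, 10.53 and 10.28 against 9.0, 8.81 and 8.77 (1.58 ± 0.11). DMT against GMT did not pass the test for either gene (0.03 ± 0.06 for Ptgs2 and -0.01 ± 0.10 for Il33), while HGMT was below GMT (-1.49 ± 0.06 and -1.60 ± 0.10).

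Interferon-response genes differed little between the groups: 0 of 29 were higher and 7 lower (20.8% and 16.1% over all genes), with a median of -0.09. Iigp1, an interferon-inducible GTPase, was the largest, at 7.32, 7.23 and 7.14 in DMT and 9.27, 9.23 and 9.48 in HGMT (-2.09 ± 0.15). Against GMT, 24 of the 29 were lower in DMT and 22 in HGMT, and 0 were higher in either. Irf7, a master regulator of the response, was -1.36 ± 0.16 in DMT and -1.29 ± 0.16 in HGMT against GMT. It was -0.07 ± 0.17 between them, which did not pass the test.

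Genes of other cell types were examined as well. For each count, the shares over all genes were 20.8% higher and 16.1% lower. Of 11 endothelial genes tested, 3 were higher and 6 lower. Cdh5, VE-cadherin of endothelial junctions, read 5.78, 5.76 and 5.71 in DMT and 7.24, 6.94 and 6.95 in HGMT (-1.30 ± 0.07), and Tek, the angiopoietin receptor, read 6.27, 6.14 and 6.24 against 7.61, 7.39 and 7.59 (-1.31 ± 0.10). Both lay above the array median in HGMT alone, by 0.69 or less, while the defining genes Pecam1, Kdr and Tie1 lay below it on all 6 arrays. The 5 endothelial markers summed to 28.8 to 29.4 in DMT and 31.5 to 32.0 in HGMT. Esam, an adhesion molecule, was higher in DMT (1.03 ± 0.07). Of 12 cartilage and bone genes, 4 were higher, all by 2-fold or more (Ibsp, Acan, Col10a1 and Dmp1), and 4 lower, led by Comp (-1.26 ± 0.16) and Alpl (-1.11 ± 0.14). Col10a1, a collagen of hypertrophic cartilage, read 11.75, 11.73 and 11.75 against 10.13, 10.18 and 10.04 (1.63 ± 0.08), and Acan, aggrecan, read 6.87, 7.69 and 7.22 against 5.58, 5.58 and 5.46 (1.72 ± 0.13). Of 6 neural and glial genes, 2 were higher (Nes and Ncam1) and 3 lower, and of 3 noradrenergic genes, Gata2 was lower (-0.48 ± 0.09).

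Cell cycle, p53 and metabolic genes showed small differences, with few of 2-fold or more. Of 20 cell cycle genes, 1 was higher and 5 lower, including cyclin genes Ccna2 (-0.70 ± 0.10) and Ccnb2 (-0.69 ± 0.09) and the thymidylate synthase gene Tyms (-0.67 ± 0.09). Tyms read 8.71, 8.55 and 8.27 in DMT and 9.15, 9.21 and 9.19 in HGMT. None of these changed by 2-fold. Of 20 p53 targets, 5 were higher (3 without DMT replicate 1) and 4 lower (2 without DMT replicate 2 or 3). That was near the shares over all genes, 20.8% higher and 16.1% lower, and the median of the p53 list was -0.003. Of 31 oxidative metabolism genes, 12 were higher and 3 lower. Fabp3, the fatty acid carrier of heart and muscle, read 9.11, 8.96 and 9.02 against 7.61, 7.57 and 7.77 (1.38 ± 0.15), and it was -0.40 ± 0.14 in DMT and -1.78 ± 0.14 in HGMT against GMT. Of 13 macrophage genes, Cd68 (0.49 ± 0.14) was higher and 0 were lower; Cd68 is a lysosomal protein that other cells make too.

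**Figure D5:**
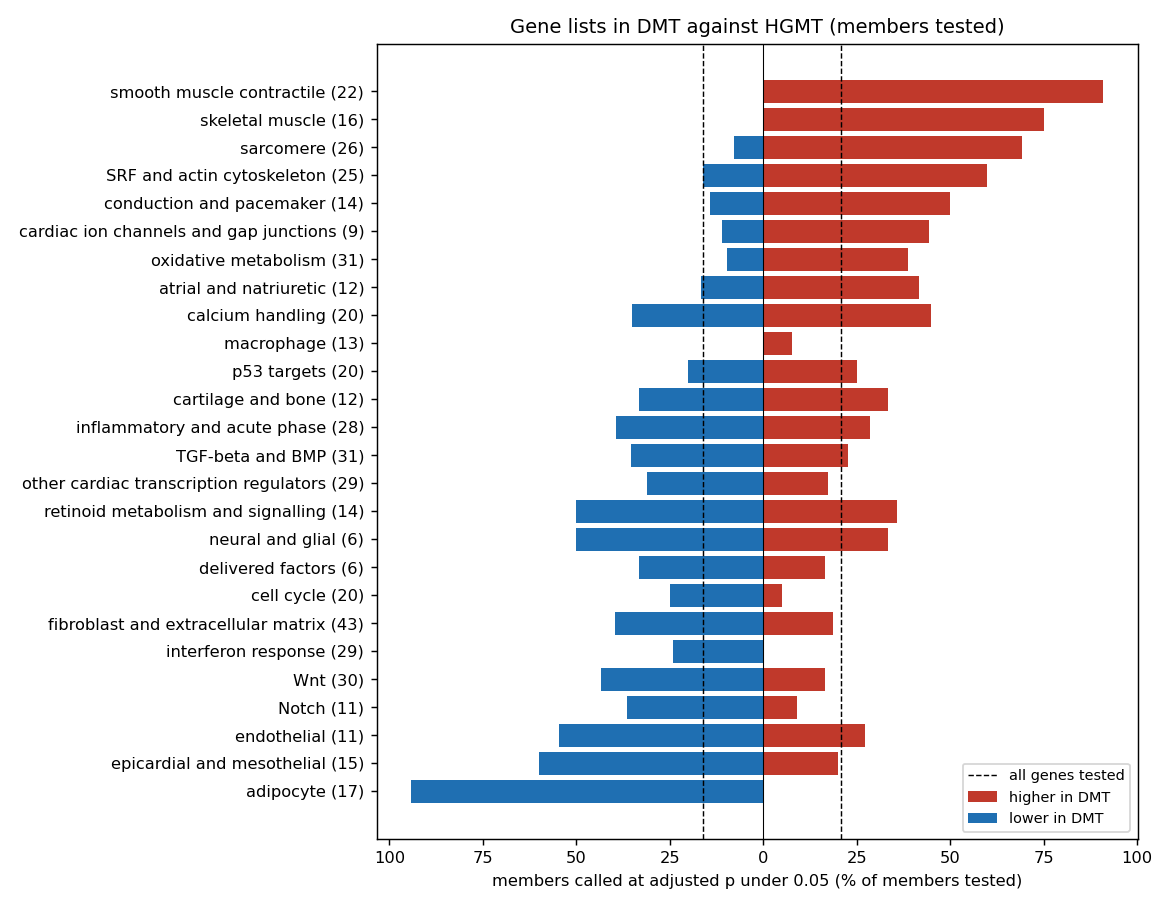
Share of tested members called higher in DMT (bars to the right) and lower in DMT (bars to the left), in % of members tested, for the gene lists with at least 6 tested members (number tested in brackets); dashed lines mark the shares over all genes, 20.8% and 16.1%. The smooth muscle list stands at the top with 20 of 22 higher and the adipocyte list at the bottom with 16 of 17 lower.

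DMT replicate 4, scaled with another set of arrays, was set beside the HGMT arrays after each array's median was subtracted. For the 15 genes of largest rise it lay above all 3 HGMT arrays in 15 of 15 cases, and for the 15 genes of largest fall it lay below them in 15 of 15. Cnn1, for example, lay 4.77 above the median in DMT replicate 4, 4.47 to 4.62 above it in DMT replicates 1 to 3 and 0.25 to 0.47 below it in HGMT. Inmt lay 1.91 below the median in DMT replicate 4, 1.27 to 1.45 below it in replicates 1 to 3 and 3.84 to 4.23 above it in HGMT. This array did not choose the genes, but the 3 HGMT arrays did take part, which made such counts likely beforehand. The share of all genes at which DMT replicate 4 lay outside the HGMT values was not counted. The scaling of DMT replicate 4 also differs from that of the others, and no test was made.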

How the data were processed

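The authors deposited log2 signal of 35556 probe sets on 28 single-channel arrays (3.757941 to 14.46866). The submitters' processing notes name MAS5, and the summarizing, scaling and log steps are otherwise not stated there. The samples are labelled as biological replicates. Nearly equal distributions of sorted values placed the arrays in 3 sets of 8, 15 and 5 (mean distance between sorted values at most 0.0486 within a set and at least 0.135 between sets), and all 6 arrays compared lie in the second.

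A single probe set, that of highest mean over the arrays, stood for each of 19938 genes, among 21789 probe sets with 1 symbol (1621 had several and 12146 none). The 12211 genes above the array median on at least 3 arrays entered a fit in limma 3.58.1 under R 4.3.3 (lmFit, contrasts, eBayes with trend; terms for group and array set; 19 residual df; two-sided; Benjamini-Hochberg over genes). Genes high in 1 group alone could pass this filter through that group, so their direction was likely beforehand. The difference between DMT and HGMT equals that of the 3 and 3 arrays, while differences from GMT or NGMT also draw on arrays of the first set. The 95% interval of DMT minus HGMT had a median half-width of 0.14, and the number of arrays limits the precision. The fit was tested on simulated data.

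The members and the 28 gene lists (517 of 679 entries tested) were chosen with earlier results of these data known, so no list was tested as a set. Named genes were the 6 factor genes, the 15 largest rises and 15 largest falls without overlap whose higher group lay above the median, and, per list, at most 5 called members of largest change (up to 2 of smallest p where fewer than 2 were called), 141 in all. Other genes in the text were chosen after their values were seen. Alternatives covered the arrays fitted, a replicate block, scaling, the filter, the probe set rule, the variance prior and each replicate left out. 0 columns of the table were left unused.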

Additional observations from a re-analysis of the deposited data

How the results depend on the processing

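With other settings, the 4502 calls became 3543 (15 arrays of the second set only), 5175 (6 arrays only), 4486 (quantile normalization), 4528 (arrays centred on their median), 4775 (no filter), 4265 (above the median throughout a group), 4470 (mean of a gene's probe sets) and 4480 (no trend). Leaving out each replicate in turn gave 3792 to 3987 calls, 2071 to 2382 higher, 1605 to 1788 lower and 406 to 454 by 2-fold. No called gene was called in the opposite direction in any of these. HGMT against GMT fell from 3258 calls to 2080, and HNGMT against NGMT from 3865 to 2145, with only the second set fitted, which has fewer arrays. With the replicate block on the 6 arrays, 4793 genes were called against 5175 without it, and 424 by 2-fold in both. The numbers did not pair the arrays (same-number correlations of deviations -0.01, -0.26 and -0.02), and no array correlated best with its own number. Of 135 named genes called, Hey2, Cacna1g, Kcnk3, Jag1, Lfng and Ddit4 lost the call under 5 to 7 settings, with adjusted p up to 0.176. Hand1, not called, passed in 2. No detection call limits genes near the array median.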

Other observations

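Further gene groups were read after their values had been seen, as description only. Genes induced by low oxygen were mostly higher in DMT: of 22 tested, 19 were higher and 1 lower, with a median of 0.61. Over all genes, 20.8% were higher and 16.1% lower. Pgk1, a glycolytic kinase, read 12.16, 12.37 and 12.37 in DMT and 11.50, 11.35 and 11.49 in HGMT (0.85 ± 0.08), and the glucose transporter gene Slc2a1 read 11.33, 11.28 and 11.35 against 10.63, 10.54 and 10.56 (0.74 ± 0.09). Groups did not overlap in either gene. Car9, carbonic anhydrase 9, read 8.33, 9.70 and 8.61 against 6.17, 6.46 and 6.14, but GMT ran from 6.48 and 6.88 to 9.61, and its SE was 0.57 for a difference of 2.62. GMT replicate 5 was also the highest of its 3 arrays for Egln3 (8.31 against 6.29 and 6.20), Ndufa4l2 (8.90 against 6.67 and 7.21) and Vegfa (10.90 against 10.10 and 10.15). Adm, adrenomedullin, was the lower member (-0.90 ± 0.10), and Hk2 (-0.00 ± 0.11) and Kdm3a (0.10 ± 0.06) did not pass the test.

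Imprinted genes of growth were lower in DMT in 10 of 16 tested and higher in 2, with a median of -0.45. Igf2, the fetal insulin-like growth factor, read 9.39, 9.31 and 9.06 in DMT and 11.86, 12.13 and 11.88 in HGMT (-2.70 ± 0.16), with -1.31 ± 0.15 in DMT and 1.39 ± 0.15 in HGMT against GMT. Mest read 8.96, 8.80 and 8.65 against 11.58, 11.55 and 11.50 (-2.74 ± 0.19). Dlk1, an inhibitor of fat cell formation, was lower (-1.69 ± 0.18) while the adipocyte genes were lower too. Ndn (0.42 ± 0.05) and Grb10 (0.31 ± 0.06) were the 2 higher members. Of 15 genes of the dystrophin complex and of laminin-binding integrins, 9 were higher in DMT and 1 lower, with a median of 0.40. For these and the imprinted genes, the shares over all genes were 20.8% higher and 16.1% lower. Dmd, dystrophin, read 7.88, 8.28 and 8.34 against 6.56, 6.38 and 6.57 (1.66 ± 0.11), and Itga7, the muscle laminin receptor, read 9.35, 9.41 and 9.45 against 8.06, 8.16 and 8.05 (1.32 ± 0.08). Itga6 was 1.38 ± 0.08 higher; against GMT it was -0.01 ± 0.08 in DMT, which did not pass the test, and -1.39 ± 0.08 in HGMT.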
